A study of Mus musculus with 9 samples.

Results

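Transcripts of 5 mucin genes, *Muc1*, *Muc4*, *Muc15*, *Muc16* and *Muc20*, and of *Ovgp1*, which encodes oviductin, were measured in the receptive mouse uterus with and without WNK1. These 6 genes were taken by symbol from the 31274 entries of the deposited expression table, and all 6 were found. *Muc4*, *Muc20* and *Ovgp1* were 4.04- to 4.75-fold higher in mean level in uteri that had lost WNK1 and passed the test used here. *Muc1* (2.37-fold) and *Muc16* (2.13-fold) were higher in mean level but did not pass it. The study, by another test, names *Muc1* among its deregulated genes. *Muc15* was near 0 in every library and was not tested. Because these libraries are of whole uteri, more cells of a type and more RNA per cell cannot be told apart.

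The 9 libraries were made from whole uteri of C57BL/6 mice on pseudopregnancy day 4.5 (PPD 4.5), when the uterus is prepared for an embryo but holds none. All were virgin females of 6 to 10 weeks that had been mated to vasectomized males. The 4 controls, Wnk1f/f, carried floxed *Wnk1* alleles and no Cre. The 5 Wnk1d/d mice carried the same floxed alleles with PGR-Cre, in which Cre made from the progesterone receptor locus removes exon 2 of *Wnk1*. The groups thus differ in this Cre allele as well as in *Wnk1*, and their effects cannot be told apart here. Cre from this locus also acts in the ovary and the pituitary, which make or drive the hormones that reach the uterus. On the matching day of pregnancy, the study reports similar serum estradiol and progesterone in both genotypes. It concludes that the pituitary and ovary were not the main factor in the delayed implantation. Hormone levels were not examined here. Uterine immune and endothelial cells do not express the progesterone receptor and keep WNK1. Each library came from 1 mouse. The labels name no batch or date.

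The values are FPKM, fragment numbers divided by exon length and by the size of the library, so levels of different genes were compared per length, and absolute depth is unknown. Library facts that touch these genes were few. *Wnk1* itself averaged 45.3 ± 1.62 FPKM (SD, n = 4) in Wnk1f/f and 31.2 ± 1.62 FPKM (SD, n = 5) in Wnk1d/d uteri, without overlap. Epithelial markers were present in all libraries, with *Epcam* at 111 to 139 FPKM in Wnk1f/f and 132 to 157 FPKM in Wnk1d/d uteri. Liver markers, 10 genes such as *Alb*, summed to 184 FPKM in Wnk1f/f replicate 4 and to 8.90 to 28.6 FPKM in the other 8 libraries. In Wnk1d/d replicate 4, a single entry held 70.3% of the summed FPKM.

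Mucins are large glycoproteins whose long repeat regions carry dense O-linked sugars. The membrane mucins MUC1, MUC4, MUC15, MUC16 and MUC20 are anchored in the apical membrane of epithelial cells by a transmembrane segment, with a long outer part that keeps other cells and microbes at a distance and a short tail inside the cell. In the uterus this glycocalyx covers the luminal surface that the embryo must meet, and loss of surface mucin, of MUC1 above all in the mouse, is regarded as part of the passage to receptivity. Oviductin is a secreted, heavily glycosylated relative of chitinases without their enzyme activity. It is made mainly by secretory cells of the oviduct under estrogen and coats the egg and early embryo.

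The genes lie at 5 places in the genome (mm10, GENCODE M21). *Muc1* (ENSMUSG00000042784.9) is a short gene on the plus strand of chromosome 3, from 89229057 to 89233381, whose longest coding transcript has 7 exons. *Ovgp1* (ENSMUSG00000074340.9) lies on the same chromosome and strand, from 105973711 to 105987423, with 11 exons. *Muc4* (ENSMUSG00000079620.13) covers 32735886 to 32782391 on the plus strand of chromosome 16 with 27 exons and encodes 3470 amino acids. *Muc20* (ENSMUSG00000035638.14) covers 32777419 to 32797435 on the minus strand of chromosome 16, so that the ends of *Muc4* and *Muc20* overlap. *Muc16* (ENSMUSG00000109564.1) covers 18495455 to 18674530 on the minus strand of chromosome 9, and its longest annotated transcript has 78 exons and encodes 8478 amino acids. *Muc15* (ENSMUSG00000050808.13) covers 110721340 to 110739527 on the plus strand of chromosome 2, inside the span of *Ano3* on the other strand, with 61 exonic bases shared.

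Sequences upstream of the transcription start are shown for the 3 genes that passed the test and for *Muc1*, the mucin with the highest mean level in both genotypes. They are 250 bases before the RefSeq start, on mm10. For *Ovgp1*, whose GENCODE start lies before the RefSeq start, the last 91 of these bases fall inside the GENCODE gene and were left out. Capitals mark matches, on either strand, to 7 motifs: TGTTCT (progesterone or glucocorticoid receptor half-site), GTAAACA (forkhead core), TTCNNNGAA (STAT), GGGCGG (GC box), TATAAA (the box that sets the start of many genes, called TATA box hereafter), GGTCA (estrogen receptor half-site) and GGTCANNNTGACC (full estrogen response element, which contains half-sites).
*Muc1*, chr3:89228806-89229055, plus strand: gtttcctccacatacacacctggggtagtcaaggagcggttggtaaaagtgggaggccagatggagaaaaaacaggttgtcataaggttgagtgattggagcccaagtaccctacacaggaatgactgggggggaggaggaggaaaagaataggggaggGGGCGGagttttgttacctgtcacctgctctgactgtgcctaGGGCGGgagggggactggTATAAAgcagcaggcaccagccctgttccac
*Muc4*, chr16:32735636-32735885, plus strand: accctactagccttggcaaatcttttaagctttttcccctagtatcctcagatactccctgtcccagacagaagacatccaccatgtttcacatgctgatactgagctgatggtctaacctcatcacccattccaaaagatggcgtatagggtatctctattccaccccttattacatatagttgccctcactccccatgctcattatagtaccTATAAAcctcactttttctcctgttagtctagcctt
*Muc20*, chr16:32797436-32797685, minus strand: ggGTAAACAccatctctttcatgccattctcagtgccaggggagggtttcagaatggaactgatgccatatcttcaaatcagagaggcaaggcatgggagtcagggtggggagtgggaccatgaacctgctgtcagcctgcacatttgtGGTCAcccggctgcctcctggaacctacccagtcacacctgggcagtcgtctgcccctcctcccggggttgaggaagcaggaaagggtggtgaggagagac
*Ovgp1*, chr3:105973552-105973710, plus strand: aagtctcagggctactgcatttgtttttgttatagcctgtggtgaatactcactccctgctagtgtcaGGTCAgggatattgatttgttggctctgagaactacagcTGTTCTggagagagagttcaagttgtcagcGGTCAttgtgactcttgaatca

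The *Muc1* window held GC boxes at -91 to -86 and -49 to -44 and a TATA box at -31 to -26, counted from the start. The *Muc4* window held a TATA box at -36 to -31 and none of the other motifs. The neighbouring *Muc20* window had no TATA box and held a forkhead core at -248 to -242 and an estrogen receptor half-site at -101 to -97. The *Ovgp1* window held a progesterone or glucocorticoid receptor half-site at -143 to -138 between estrogen receptor half-sites at -182 to -178 and -113 to -109. The *Muc16* window, not printed here, had a single match, TGTTCT at -41 to -36. Among 32851 promoter windows of 250 bases, 12.4% held the TATA box, 32.7% the GC box and 35.2% the estrogen receptor half-site. The progesterone or glucocorticoid receptor half-site was in 16.1% and the forkhead core in 3.17%, so most of these matches are common ones. The *Ovgp1* window, at 159 bases, is shorter, so for it these shares are not like for like. The STAT motif (7.02% of windows) and the full estrogen response element (0.0639%) were in none of the 5 windows. A match is a run of letters, and binding was not measured.

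*Muc4* binds the receptor ERBB2 through its membrane-bound subunit. Its level was 2.94, 4.62, 3.79 and 3.10 FPKM in Wnk1f/f replicates 1 to 4 and 24.61, 19.62, 18.06, 13.23 and 10.21 FPKM in Wnk1d/d replicates 1 to 5. The lowest Wnk1d/d library lay above the highest control by more than the whole range of the controls. The means were 3.61 ± 0.766 (SD, n = 4) and 17.1 ± 5.61 FPKM (SD, n = 5), a ratio of 4.75. On the log2(FPKM + 1) scale, which understates the change of low genes, the difference was 1.93 with a standard error of 0.23 and a 95% interval of 1.42 to 2.44 (limma, adjusted p = 0.0021 over 14728 genes). Of the genes tested, 56 had a larger log2 difference. The exact two-sided permutation test gave p = 0.0079, which is the smallest that 4 against 5 libraries allow.

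*Ovgp1* had the largest difference of the 6 genes on the log2(FPKM + 1) scale, while *Muc4* had the larger ratio of means and, at pseudocounts of 0.1 and 0.01, the larger log2 difference (2.17 and 2.20, against 2.16 and 2.17 for *Ovgp1*). *Ovgp1* measured 10.08, 12.03, 13.96 and 9.06 FPKM in Wnk1f/f replicates 1 to 4 and 83.18, 47.58, 58.15, 32.29 and 41.95 FPKM in Wnk1d/d replicates 1 to 5. The control libraries lay close together, the Wnk1d/d libraries spread 2.58-fold, and the groups did not overlap. The means were 11.3 ± 2.17 (SD, n = 4) and 52.6 ± 19.5 FPKM (SD, n = 5), a ratio of 4.66. The log2 difference was 2.07 with a standard error of 0.24 and a 95% interval of 1.53 to 2.61 (limma, adjusted p = 0.0021; exact permutation p = 0.0079), and 42 of the genes tested had a larger one. Per length, *Ovgp1* was above *Muc1* in all 9 libraries. In GENCODE, 1023 exonic bases of *Ovgp1* (28.7%) are shared with *Gm42890*, a noncoding transcript of the same strand that is not an entry of the table, and reads from both cannot be told apart there.

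*Muc20*, which can bind the receptor MET, measured 1.06, 0.76, 0.72 and 2.25 FPKM in Wnk1f/f replicates 1 to 4 and 5.43, 7.03, 5.37, 3.68 and 2.68 FPKM in Wnk1d/d replicates 1 to 5. Every Wnk1d/d library was above every control, with Wnk1d/d replicate 5 only slightly above Wnk1f/f replicate 4, the library with the liver markers. The means were 1.20 ± 0.718 (SD, n = 4) and 4.84 ± 1.69 FPKM (SD, n = 5), a ratio of 4.04. The log2 difference was 1.41 with a standard error of 0.26 and a 95% interval of 0.83 to 1.99 (limma, adjusted p = 0.0080; exact permutation p = 0.0079). Without Wnk1f/f replicate 4 it was 1.61 (limma, adjusted p = 0.0098).

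The overlap of *Muc4* and *Muc20* bears on this value, since the strand setting of the authors' counting is not given in the sources used here. The last exon of the longer *Muc20* transcript shares 381 exonic bases with the longest *Muc4* transcript, which is 10.4% of that *Muc20* transcript and 3.38% of the *Muc4* one. The shorter *Muc20* transcript shares none. The part that *Muc4* fragments over these bases would add to *Muc20*, if all were counted for it, was taken off. This assumes even coverage along *Muc4*, which was not measured, so the part is not an upper limit. The *Muc20* level less that part would be 0.755, 0.281, 0.327 and 1.93 FPKM in Wnk1f/f replicates 1 to 4 and 2.88, 4.99, 3.50, 2.31 and 1.62 FPKM in Wnk1d/d replicates 1 to 5. Wnk1f/f replicate 4 then exceeded Wnk1d/d replicate 5, and the means were 0.823 ± 0.767 and 3.06 ± 1.28 FPKM (SD, n = 4 and 5). The log2 difference was 1.18 (exact permutation p = 0.024, two-sided, not adjusted). This correction was chosen after seeing the data.

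*Muc1*, whose tail binds beta-catenin, had the largest standard error of the 5 tested members. It measured 4.5, 11.46, 9.55 and 9.02 FPKM in Wnk1f/f replicates 1 to 4 and 27.72, 38.11, 14.07, 11.01 and 11.32 FPKM in Wnk1d/d replicates 1 to 5. Wnk1d/d replicates 1 and 2 stood well above all controls, replicate 3 slightly above, and replicates 4 and 5 just under the highest control. The means were 8.63 ± 2.95 (SD, n = 4) and 20.4 ± 12 FPKM (SD, n = 5), a ratio of 2.37. The log2 difference was 1.05 with a standard error of 0.39 and a 95% interval of 0.17 to 1.92, and it did not pass the adjusted threshold (limma, adjusted p = 0.080). The exact permutation test of *Muc1* alone, without adjustment, gave p = 0.048. The study, which tested genes with Cuffdiff, names *Muc1* among the genes that changed alike without WNK1 and without FOXO1. That test was not repeated here.

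*Muc16*, also known as CA125, binds mesothelin and is made by the mesothelium that lines the body cavity as well as by uterine epithelium. It measured 0.99, 0.53, 0.93 and 0.50 FPKM in Wnk1f/f replicates 1 to 4 and 3.39, 0.79, 1.17, 1.17 and 1.32 FPKM in Wnk1d/d replicates 1 to 5. Wnk1d/d replicate 1 stood far above all others, and replicate 2 lay within the controls. The means were 0.738 ± 0.258 (SD, n = 4) and 1.57 ± 1.04 FPKM (SD, n = 5), and *Muc16* entered the test only because of its Wnk1d/d mean. The log2 difference was 0.50 with a standard error of 0.24 and a 95% interval of -0.04 to 1.04 (limma, adjusted p = 0.16; exact permutation p = 0.071). Without Wnk1d/d replicate 1 it was 0.29 (limma, adjusted p = 0.19). *Muc15* was listed at 0.05, 0, 0.06 and 0.02 FPKM in Wnk1f/f replicates 1 to 4 and at 0, 0.06, 0.02, 0.02 and 0.01 FPKM in Wnk1d/d replicates 1 to 5, with no separation of the groups.

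**Figure D1:**
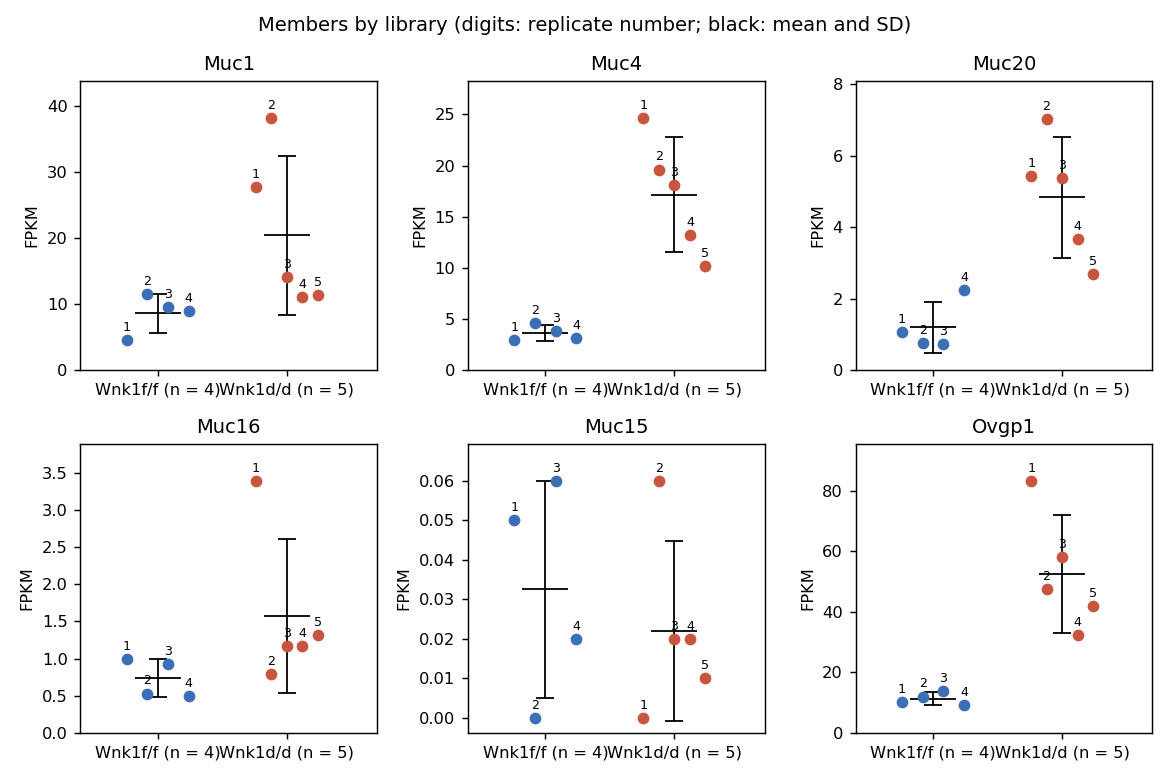
FPKM of the 6 genes (vertical axes, each on its own scale) in 4 Wnk1f/f (blue) and 5 Wnk1d/d (red) libraries, with digits for replicate numbers and black bars for the mean and SD. The groups do not overlap for *Muc4*, *Muc20* and *Ovgp1*, while 2 Wnk1d/d libraries of *Muc1* and 1 of *Muc16* lie within the range of the controls.

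Against the whole table, 3 of the 5 tested members were called higher (limma, adjusted p under 0.05, with means that differ 1.5-fold or more) and 0 lower. Of all 14728 genes tested, 5.09% were called higher and 5.18% lower. The same 3 members had every Wnk1d/d library above every control, as did 9.27% of all genes tested. The median log2 difference was 1.41 over the 5 tested members and 0.003 over all genes tested.

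The mucins of the receptive uterus were then ranked by level. Of the mucin symbols looked for, 15 were entries of the table. In Wnk1f/f uteri the order by mean level was *Muc1* (8.63 FPKM), *Muc4* (3.61), *Muc20* (1.20) and *Muc16* (0.738), followed at a distance by *Dpcr1* (0.145), the mucin-like gene also called *Mucl3*, and by the secreted mucins *Muc2* (0.130) and *Muc6* (0.0775). The same 4 mucins led in the same order in Wnk1d/d uteri, at 20.4, 17.1, 4.84 and 1.57 FPKM, followed by *Dpcr1* (0.184) and *Muc2* (0.112). No other mucin than these 4 exceeded 0.32 FPKM in any library, and *Muc16* was above each of the other 11 in all 9 libraries. *Muc13*, a membrane mucin of the gut, *Muc5ac*, *Muc5b* and *Muc19*, gel-forming mucins of airways and glands, and *Mucl1* and *Spt1* (*Mucl2*) had means of 0.094 FPKM or less in both genotypes, and *Muc3* was listed at 0 throughout.

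Not all neighbours in this order were separated. In Wnk1f/f uteri *Muc1* exceeded *Muc4* in 4 of 4 libraries, although their ranges overlapped slightly (4.5 to 11.46 and 2.94 to 4.62 FPKM). *Muc4* was above *Muc20* without overlap of the ranges, *Muc20* exceeded *Muc16* in 3 of 4 libraries, and *Muc16* was above *Dpcr1* without overlap. In Wnk1d/d uteri *Muc1* exceeded *Muc4* in only 3 of 5 libraries, and by the median *Muc4* (18.06 FPKM) came before *Muc1* (14.07 FPKM). *Muc4* remained above *Muc20* without overlap, and *Muc20* exceeded *Muc16* in 5 of 5 libraries with overlapping ranges.

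**Figure D2:**
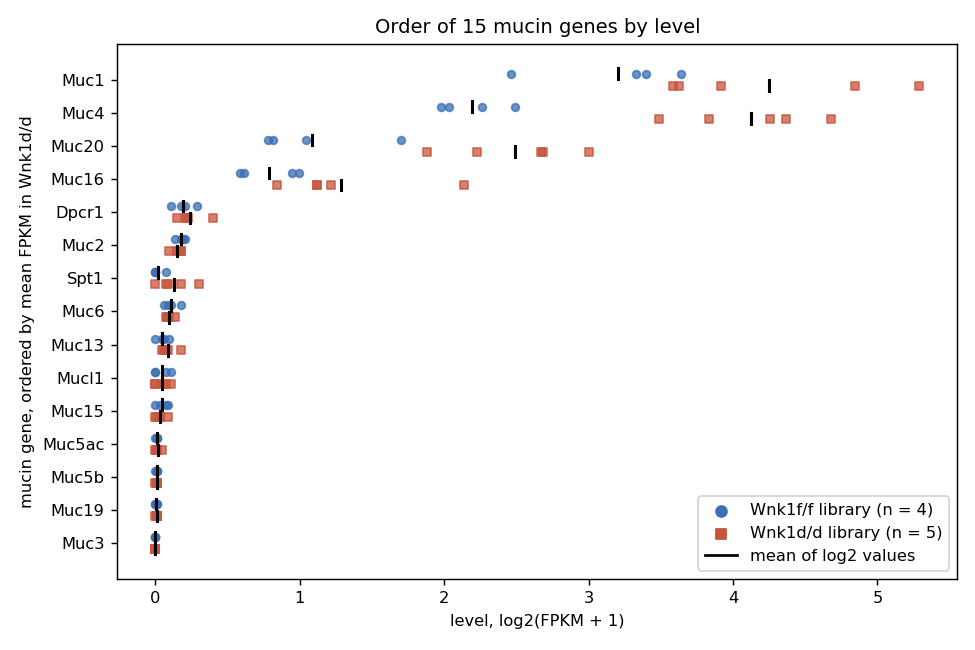
Level of 15 mucin genes, as log2(FPKM + 1) on the horizontal axis, in 4 Wnk1f/f (blue circles) and 5 Wnk1d/d (red squares) libraries, with a black line at each mean and genes ordered by mean FPKM in Wnk1d/d. *Muc1*, *Muc4*, *Muc20* and *Muc16* lead in both genotypes, and the other 11 lie near 0.

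Summed over the 15 mucin genes, the level was 9.95, 17.85, 15.51 and 15.35 FPKM in Wnk1f/f replicates 1 to 4 and 61.61, 66.24, 39.31, 29.82 and 26.03 FPKM in Wnk1d/d replicates 1 to 5. All Wnk1d/d sums lay above all control sums, with a ratio of means of 3.04. The 4 leading mucins made up 95.4% to 99.3% of each sum. *Muc1* held 57.4% of the sum on average in Wnk1f/f (45.2% to 64.2%) and 43.7% in Wnk1d/d uteri (35.8% to 57.5%), and *Muc4* held 25.0% (20.2% to 29.5%) and 39.8% (29.6% to 45.9%). These shares rest on the same values as the comparisons above and were not tested.

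Ratios within a library were compared for 4 pairs by exact two-sided permutation tests. *Muc4* to *Muc1* was 0.449 ± 0.139 (SD, n = 4) in Wnk1f/f and 0.958 ± 0.304 (SD, n = 5) in Wnk1d/d uteri (permutation p = 0.024, Benjamini-Hochberg adjusted p = 0.095). *Ovgp1* to *Muc1* was 1.44 ± 0.572 and 3.0 ± 1.10 (permutation p = 0.048, adjusted p = 0.095). *Ovgp1* to *Muc4* was 3.16 ± 0.487 in Wnk1f/f and 3.11 ± 0.707 in Wnk1d/d uteri (permutation p = 0.87, adjusted p = 0.87). *Muc20* to *Muc4* was 0.360 ± 0.259 and 0.283 ± 0.0505 (permutation p = 0.84, adjusted p = 0.87). None of the 4 ratios passed the adjusted threshold.

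**Figure D3:**
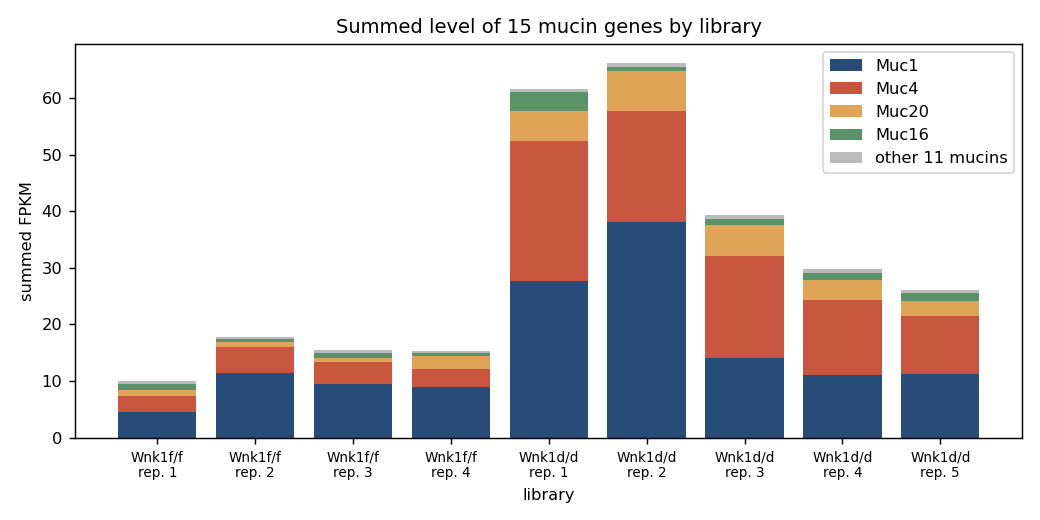
Summed FPKM of 15 mucin genes (vertical axis) in each of the 9 libraries, stacked by gene. The Wnk1d/d sums, from 26.03 to 66.24, all exceed the Wnk1f/f sums, from 9.95 to 17.85, and *Muc1* (dark blue) and *Muc4* (red) make up most of each bar.

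Epithelial content was compared next, since mucins and oviductin are made by epithelium. From staining of older mice, the study reports hyperplasia of glandular and luminal epithelium in Wnk1d/d uteri. Of 12 epithelial markers, 4 were called higher and 0 lower in Wnk1d/d uteri, against 5.09% and 5.18% of all genes tested. The median log2 difference of the 12 was 0.22. The 4 were *Krt7*, a keratin (mean FPKM from 104 in Wnk1f/f to 193 in Wnk1d/d), *Cldn7*, a claudin (from 122 to 185), and the epithelial transcription factors *Ehf* (from 24.9 to 45.2) and *Grhl2* (from 10.8 to 17.4). In all, 10 of the 12 had a higher and 2 a lower mean in Wnk1d/d uteri. The lower ones were *Krt18* (365 and 347 FPKM) and *Cldn4* (58.4 and 49.1 FPKM), neither of them called. The mean log2 level of the 12 markers was 6.17 in Wnk1f/f and 6.49 in Wnk1d/d uteri. Relative to that mean in each library, *Ovgp1* was still higher in Wnk1d/d uteri by 1.75 and *Muc4* by 1.61 on the log2 scale (exact permutation p = 0.0079 for each), and *Muc20* by 1.08 (exact permutation p = 0.016). The difference was 0.72 for *Muc1* (exact permutation p = 0.056) and 0.17 for *Muc16* (exact permutation p = 0.51).

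**Figure D4:**
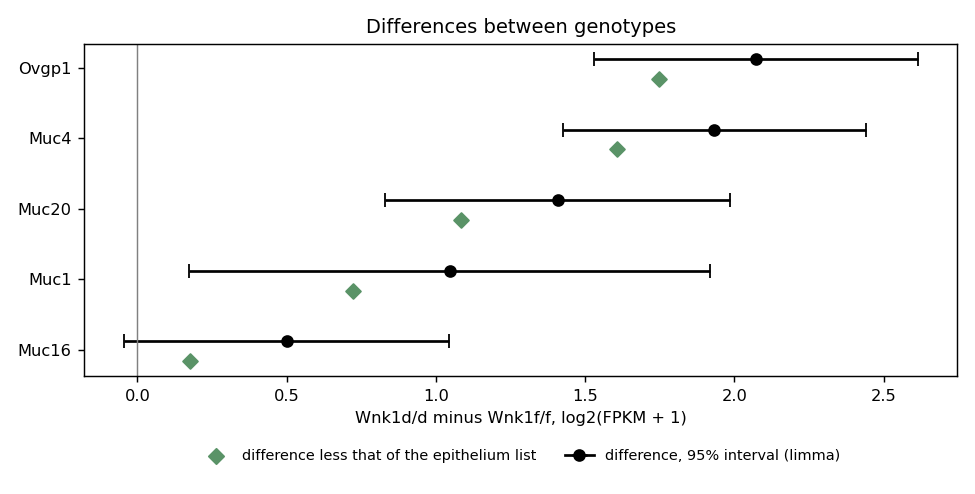
Difference between Wnk1d/d and Wnk1f/f in log2(FPKM + 1) (horizontal axis) for the 5 tested genes, with the 95% interval from limma (black) and, as green diamonds, the same difference less that of the mean of 12 epithelial markers. The differences fall from 2.07 for *Ovgp1* to 0.50 for *Muc16*, whose interval includes 0, and each diamond lies 0.32 to the left.

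Within a genotype, *Muc4* moved with the epithelial markers from library to library. With genotype means removed, its Pearson r with the mean of the 12 markers was 0.95 over the 9 libraries, and 0.96 without the 2 libraries farthest from the median of the markers. The *Muc4* level relative to the markers was -3.99, -3.99, -3.98 and -3.95 in the 4 controls, a spread of 0.019 (SD) on the log2 scale, against -2.73 to -2.20 in the 5 Wnk1d/d libraries. The corresponding r was 0.83 for *Ovgp1* (0.71 without the same 2 libraries), 0.77 for *Muc1* (0.70), 0.39 for *Muc16* (-0.26) and 0.21 for *Muc20* (-0.16). The points share a library and its tissue composition, and these values describe the 9 libraries.

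For *Muc16*, a mesothelial gene as well, other lists were read. Mesothelial markers, 6 genes that include *Msln* and *Upk3b*, summed to 32.1, 9.30, 22.5 and 15.4 FPKM in Wnk1f/f replicates 1 to 4 and to 85.3, 31.9, 33.2, 24.03 and 47.0 FPKM in Wnk1d/d replicates 1 to 5. Wnk1d/d replicate 1, which had the highest *Muc16*, also had the highest mesothelial sum, with *Msln* at 28.40 and *Upk3b* at 26.91 FPKM. Of the 6 markers 1 was called higher, *Lrrn4* (1.52 ± 0.787 and 4.70 ± 2.68 FPKM, limma, adjusted p = 0.036), and 0 lower. Of all genes tested, 5.09% were called higher and 5.18% lower. The r of *Muc16* with the mesothelial mean was 0.85 with genotype means removed and 0.52 without the 2 libraries farthest from the median, Wnk1f/f replicate 1 and Wnk1d/d replicate 1, so it rests in part on them. Its r with the 6 gland markers was -0.90, and -0.76 without the 2 libraries farthest from their median. The gland r was also negative for *Ovgp1* (-0.80, and -0.58 without those 2), *Muc4* (-0.68 and -0.09), *Muc1* (-0.39 and 0.04) and *Muc20* (-0.17 and 0.48). The r of *Muc16* with the 6 stromal markers was -0.73, and 0.31 without the 2 farthest. With the 5 luminal markers it was 0.23, and 0.72 without the 2 farthest, so which list *Muc16* followed most depends on single libraries. The part of mesothelial RNA in the *Muc16* difference was not tested.

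**Figure D5:**
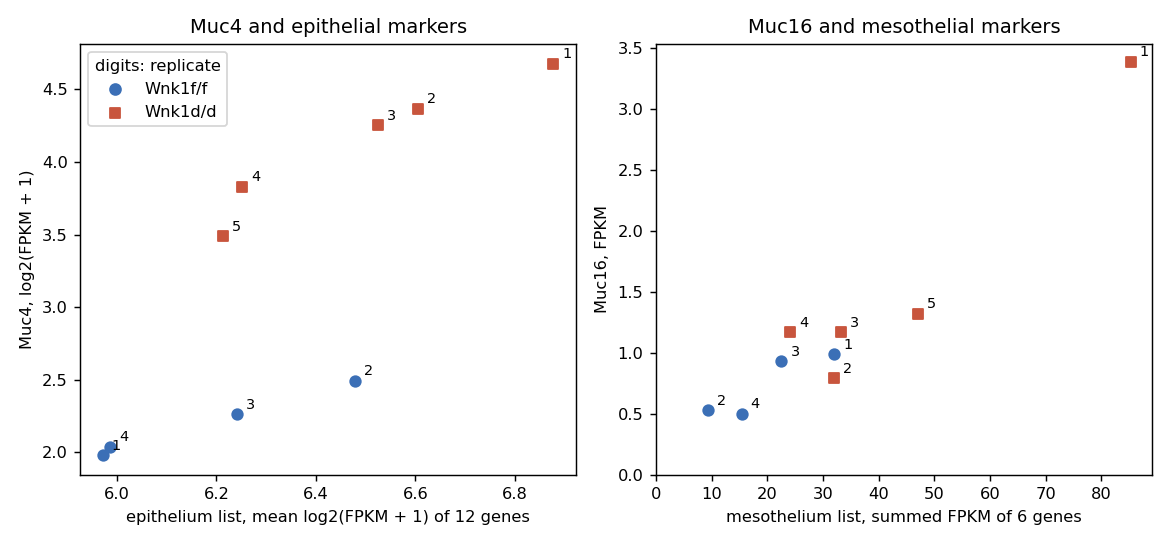
Left, *Muc4* against the mean of 12 epithelial markers, both as log2(FPKM + 1); right, *Muc16* against the summed FPKM of 6 mesothelial markers, with 1 point for each library, blue circles for Wnk1f/f, red squares for Wnk1d/d, and digits for replicate numbers. *Muc4* rises with the markers along a separate, higher line in Wnk1d/d, and Wnk1d/d replicate 1 holds the highest value of both *Muc16* (3.39 FPKM) and the mesothelial sum (85.3 FPKM).

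Markers of some other cells differed between the genotypes too. The counts below stand beside 5.09% called higher and 5.18% lower of all genes tested. All 6 smooth muscle markers were called higher, with sums of 2797 to 6372 FPKM in Wnk1f/f and 7210 to 13655 FPKM in Wnk1d/d uteri. With genotype means removed, r with these markers was -0.76 for *Muc1*, -0.46 for *Muc4*, 0.24 for *Muc16*, -0.80 for *Muc20* and -0.16 for *Ovgp1*. Without the 2 libraries farthest from the median of the markers it was -0.85, -0.81, -0.31, -0.41 and -0.71 in the same order, so these values depend on single libraries. Of 6 gland markers 3 were called lower, the proteases *Prss28* and *Prss29* and the protease inhibitor *Spink3*, while the other 3 had higher means in Wnk1d/d uteri. *Sox9*, a transcription factor, rose from 13.3 to 19.8 FPKM without overlap (limma, adjusted p = 0.026), just under the fold criterion. *Cxcl15*, a gland chemokine, had means of 1.46 and 2.64 FPKM (limma, adjusted p = 0.12), and *Foxa2*, the transcription factor that defines the glands, 5.83 and 6.78 FPKM (limma, adjusted p = 0.36). The study reports significantly higher *Foxa2* by qRT-PCR and more glands per section in Wnk1d/d uteri. Those measurements were not repeated here. Of 5 luminal markers 1 was called higher, *Calb1*, and 1 lower, *Wnt7b*. Of 6 stromal markers 1 was called higher, *Col1a1*, and 2 lower, *Hoxa11* and *Pdgfra*. No leukocyte or liver marker was called, of 6 and 10 tested (0 by limma in either direction). Their part in the mucin and oviductin differences was not tested.

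Because *Ovgp1* is known best from the oviduct, markers of multiciliated cells, which the oviduct holds in large number, were read beside it. The defining factor *Foxj1* was at 0.10 to 0.17 FPKM in Wnk1f/f and 0.16 to 0.31 FPKM in Wnk1d/d uteri, and *Mcidas*, which starts the program, was at 0 in all controls and at most 0.01 FPKM in Wnk1d/d. The 12 markers did not move one way: 6 had a higher and 6 a lower mean in Wnk1d/d uteri, the lower ones being *Ccdc153* (0.718 and 0.448 FPKM), *Dynlrb2* (0.635 and 0.262 FPKM), *Tekt1* (0.89 and 0.716 FPKM), *Dnah9* (0.0975 and 0.042 FPKM), *Ccdc67* (*Deup1*; 0.33 and 0.262 FPKM) and *1700009P17Rik* (*Cfap126*; 3.34 and 2.76 FPKM). Of the 4 high enough to test, 2 were called higher and 0 lower, against 5.09% and 5.18% of all genes tested. The 2 were the axonemal genes *Rsph1* (3.92 ± 0.969 and 6.48 ± 1.30 FPKM) and *Tekt4* (0.453 ± 0.245 and 1.52 ± 0.337 FPKM). *Tekt4* was tested only because of its Wnk1d/d mean. The 12 summed to 86.4 to 142 FPKM in Wnk1f/f and 140 to 185 FPKM in Wnk1d/d uteri, most of it *Tppp3* (105 and 152 FPKM in mean). The r of *Ovgp1* with these markers was -0.26 with genotype means removed and 0.075 without the 2 libraries farthest from the median, so its sign was not stable.

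Of 9 binding partners and shedding enzymes of mucins, 0 were called by limma, against 5.09% called higher and 5.18% lower of all genes. Without the fold criterion, 2 of the 9 had an adjusted p under 0.05, as did 3249 of all 14728 genes tested. So few genes cannot be told apart from that share. *Erbb2*, which MUC4 binds, had means of 24.9 ± 2.32 and 20.6 ± 3.22 FPKM in Wnk1f/f and Wnk1d/d uteri (limma, adjusted p = 0.11). *Met*, which MUC20 binds, fell from 12.6 ± 0.952 to 8.94 ± 1.84 FPKM (limma, adjusted p = 0.031), which at 0.711 of the control mean is short of the fold criterion. *Msln*, which encodes the mesothelin that MUC16 binds, had means of 5.15 ± 1.91 and 13.9 ± 8.69 FPKM (limma, adjusted p = 0.0503, just above the threshold). For the galectin *Lgals3*, *Ctnnb1* (beta-catenin) and *Ezr* (ezrin, which ties apical proteins to actin), adjusted p was 0.94, 0.73 and 0.43 (limma).

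Among the enzymes that cut MUC1 from the cell surface, *Adam9* rose from 20.6 ± 2.90 to 30.5 ± 1.97 FPKM without overlap of the groups (limma, adjusted p = 0.0064), 1.48-fold and so just under the fold criterion. *Adam17*, the main sheddase of MUC1 in uterine epithelial cells, had means of 19.8 and 18.8 FPKM (limma, adjusted p = 0.54), and *Mmp14*, a membrane-type metalloprotease, 145 and 159 FPKM (limma, adjusted p = 0.15).

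Among the enzymes that build O-linked sugars, 35 were present and 27 were tested. Of these 3 were called higher and 2 lower, against 5.09% and 5.18% of all genes tested, and their median log2 difference was 0.06. The 5 calls fell to 3 or 4 with 1 library left out and to 0 with the replicate number as a block. *Galnt16* (10.4 ± 1.86 and 19.6 ± 3.40 FPKM; limma, adjusted p = 0.0060) and *Galnt18* (13.7 ± 2.66 and 22.1 ± 3.92 FPKM; limma, adjusted p = 0.018), of the family that adds the first sugar, were higher in Wnk1d/d uteri. *Gcnt4*, which branches the chain, was also called higher (0.772 ± 0.403 and 1.6 ± 0.346 FPKM; limma, adjusted p = 0.038), but was tested only because of its Wnk1d/d mean. *Galnt15* was lower in Wnk1d/d uteri, at 22.29, 17.89, 15.67 and 40.73 FPKM in Wnk1f/f replicates 1 to 4 and 4.44, 11.54, 4.53, 3.94 and 6.37 FPKM in Wnk1d/d replicates 1 to 5, with no overlap (limma, adjusted p = 0.0077). *Galntl6* was called lower as well (1.15 ± 0.313 and 0.546 ± 0.179 FPKM; limma, adjusted p = 0.041), but was tested only because of its Wnk1f/f mean. Short of the fold criterion, *Galnt11* had means of 47.7 and 35.1 FPKM (limma, adjusted p = 0.034), and *C1galt1c1*, the chaperone of the core 1 enzyme, 16.5 and 20.6 FPKM (limma, adjusted p = 0.032). The core 1 enzyme itself, *C1galt1*, had means of 3.73 and 5.2 FPKM (limma, adjusted p = 0.057).

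Sialomucins, cell surface proteins of other families that carry mucin-like sugars, were 5 in number, all tested. Of them 0 were called higher and 2 lower, against 5.09% and 5.18% of all genes tested. *Emcn*, endomucin of the endothelium, fell from 80.5 ± 7.14 to 50.0 ± 11.2 FPKM (limma, adjusted p = 0.016), and *Podxl2*, endoglycan, fell from 13.1 ± 1.77 to 8.58 ± 1.33 FPKM (limma, adjusted p = 0.013). *Podxl*, *Cd34* and *Cd164* had ratios of 0.888, 1.07 and 1.10 and were not called. The median log2 difference of the 5 was -0.21.

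Of 8 transcription factors linked to mucin genes, 7 were tested, 1 was called higher and 0 lower, against 5.09% and 5.18% of all genes tested. So few genes cannot be told apart from those shares. *Elf3*, an epithelial ETS factor, measured 16.24, 37.85, 27.10 and 20.80 FPKM in Wnk1f/f replicates 1 to 4 and 76.56, 42.87, 68.92, 39.73 and 36.22 FPKM in Wnk1d/d replicates 1 to 5. The groups overlapped only in Wnk1f/f replicate 2 and Wnk1d/d replicate 5 (limma, adjusted p = 0.032). *Pgr*, the progesterone receptor, had means of 16.6 ± 4.01 and 17.8 ± 3.06 FPKM (limma, adjusted p = 0.66), and *Esr1*, the estrogen receptor, 41.3 and 50.2 FPKM (limma, adjusted p = 0.13). *Foxo1* rose from 36.6 to 43.4 FPKM (limma, adjusted p = 0.049), under the fold criterion. These are RNA levels, and protein was not measured here. For protein, the study reports more phosphorylated FOXO1 in Wnk1d/d uteri. On the matching day of pregnancy it reports less nuclear FOXO1 and PGR that persisted in the luminal epithelium. *Klf4* had means of 24 and 36.4 FPKM and *Klf5* of 13.8 and 11.6 FPKM, with limma adjusted p of 0.062 and 0.26, and *Spdef*, a factor of goblet cells, stayed under the filter in both genotypes.

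In the window searched around *Muc1* (100 kb to each side) 11 genes were tested, and around *Ovgp1* and *Muc16* 2 each, with 0 called in either direction by limma, against 5.09% called higher and 5.18% lower of all genes. So few genes cannot be told apart from that share. Of the 3 genes tested around *Muc4*, only *Muc20* was called, and around *Muc20* only *Muc4*. *Wdr77* (38.5 and 49.9 FPKM) and *Atp5f1* (64.8 and 81.5 FPKM), beside *Ovgp1*, had limma adjusted p of 0.019 each without reaching the fold criterion, as did *Fam189b* (22.0 and 17.9 FPKM, 0.016) and *Thbs3* (21.4 and 25.7 FPKM, 0.025) beside *Muc1* and *Naalad2* (13.2 and 9.72 FPKM, 0.013) beside *Muc16*.

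Likeness between genes was measured as Pearson r of log2(FPKM + 1) over the 9 libraries with genotype means removed, and is given without a test, since the nearest of so many genes has a high r by selection alone. Among the members, r was 0.78 for *Muc1* with *Muc4* and for *Muc4* with *Ovgp1*, 0.68 for *Muc16* with *Ovgp1* and 0.53 for *Muc1* with *Muc20*. It was 0.52 for *Muc1* with *Ovgp1*, 0.46 for *Muc4* with *Muc20* and 0.36 for *Muc4* with *Muc16*. The lowest were 0.14 for *Muc20* with *Ovgp1*, 0.02 for *Muc1* with *Muc16* and -0.12 for *Muc16* with *Muc20*. Of the other genes, 392 had a larger r with *Muc1* than *Muc4* had, and 260 a larger r with *Muc4* than *Ovgp1* had. The 5 nearest genes were *Ankfy1* (r = 0.96), *Lima1*, *Tlr3*, *Mitd1* and *Trim25* for *Muc1*, and *Lrrc8d* (r = 0.95), *Rftn1*, *Ceacam2*, *Mansc1* and *Wnt4* for *Muc4*. For *Muc16* they were *Them4* (r = 0.97), *Dleu2*, *Ptp4a2*, *Zfx* and *Rpl5*, and for *Muc20* *AK160408* (r = 0.97), *Slc35e2*, *Nod2*, *2810021J22Rik* and *Arrdc4*. For *Ovgp1* they were *Tbc1d30* (r = 0.97), *Ltk*, *LOC100503676*, *Far1* and *Slc39a2*. Only *Slc39a2*, a zinc transporter, was also called between genotypes, at 1.34 FPKM in Wnk1f/f and 7.38 FPKM in Wnk1d/d uteri in mean (limma, adjusted p = 0.010).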

How the data were processed

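RNA of 9 whole uteri was sequenced from TruSeq libraries. The authors aligned paired-end reads to mm10 with TopHat2 2.0.4 and computed FPKM with Cufflinks 2.0.2 (versions per the labels' processing notes), and deposited 1 FPKM table of 31274 entries with a column for each mouse. Annotation and strand setting are not given in the sources used here. The study's own gene test needs aligned reads and was not repeated here.

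From the deposited FPKM, log2(FPKM + 1) was compared without further scaling, unpaired, with limma 3.58.1 in R 4.3.3 (lmFit, eBayes with trend). The 14728 genes with a mean above 1 FPKM in at least 1 genotype were tested with Benjamini-Hochberg adjustment over all of them. A gene was called where adjusted p was under 0.05 and the means differed 1.5-fold or more. Single values were compared by exact two-sided permutation of the 126 divisions into 4 and 5 libraries (Python 3.11.15, NumPy 2.4.6, SciPy 1.17.1). The limma step was tested on simulated data, and the permutation test was checked on constructed values with complete separation and with equal groups. Replicates are separate mice.

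The members and gene lists were chosen with earlier results of these data known. Named genes were the 6 members, the mucins, called genes of each list (at most 5 in each direction), all binding partners and regulators, and the 5 genes most like each member. Other genes named (uncalled markers, enzymes, sialomucins and neighbours) fall outside this rule and were chosen after their values were seen. Symbols, positions and promoter windows came from GENCODE M21 and RefSeq on mm10. Of 146 listed genes, 141 matched an entry, some by an older symbol. Alternatives were other pseudocounts (0.1, 0.01), filters, scalings, limma settings, fold criteria, a replicate block and leaving out each library.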

Additional observations from a re-analysis of the deposited data

Results flagged for a closer look

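*Muc16* in Wnk1d/d replicate 1, at 3.39 FPKM, stood apart from the other 4 Wnk1d/d libraries: its gap to the next value was 0.796 of the range of the group, above Dixon's limit of 0.71 for 5 samples. The 6 genes in both genotypes gave 12 groups of values for this check, and chance alone marks about 1 in 20 groups. The same library had the highest sum of mesothelial markers (85.3 FPKM). Without it, the log2 difference of *Muc16* was 0.29 (limma, adjusted p = 0.19), still not past the threshold.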

How the results depend on the processing

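*Muc4* and *Ovgp1* stayed past the threshold in the same direction under all 22 alternatives run for each, *Muc20* under 20 of 21, and *Muc16* stayed short of it under all 20. *Muc1* was past 0.05 only in the exact permutation test of its log2 difference of 1.05 (p = 0.048, not adjusted), and short of it under the other 20. Leaving out 1 library at a time gave log2 differences of 0.79 to 1.21 for *Muc1*, 1.79 to 2.09 for *Muc4*, 0.29 to 0.61 for *Muc16*, 1.28 to 1.61 for *Muc20* and 1.89 to 2.23 for *Ovgp1*, with limma adjusted p from 0.0087 to 0.023 for *Muc20*, from 0.0024 to 0.0079 for *Muc4* and from 0.0023 to 0.0081 for *Ovgp1*. Without Wnk1f/f replicate 4 and Wnk1d/d replicate 1 together, a choice made after seeing the data, *Muc4* differed by 1.74 and *Ovgp1* by 1.80 (exact permutation p = 0.029 for each). That p is the smallest the remaining libraries allow. It was fixed in advance, since the groups did not overlap for either gene, and adds no support. This setting is 1 of the 22 alternatives counted above for each gene. *Muc15* relative to the epithelial markers was lower by 0.34 in Wnk1d/d uteri, a log2 difference of -0.34 that mirrors the rise of the markers, since its own level was near 0 (exact permutation p = 0.12). Tested without a filter, *Muc15* had a limma adjusted p of 0.71.

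Of all genes tested, 1513 were called. The count was 3249 without the fold criterion, 550 at a ratio of 2, and 1019 to 1870 with 1 library left out. With a filter at 5 FPKM, *Muc16* and *Muc20* were no longer tested, so that 1 mucin in place of 2 was called, and O-glycosylation enzymes had 3 calls in place of 5. With 1 library left out those enzymes had 3 to 4 calls. By the median in place of the mean, 6 of the first 8 ranks of the 4 leading mucins in both genotypes were kept.

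Replicate numbers belong to different mice. The correlation of same-numbered libraries, as deviations from their genotype means, was -0.087, -0.0029, 0.022 and -0.27, and of 4 pairs 0 correlated best with their own number, so the numbers do not pair the libraries. With the replicate number as a block, Wnk1d/d replicate 5 adds nothing to the comparison, and 218 genes, 1 mucin and 0 O-glycosylation enzymes were called (limma). *Muc20* then had a log2 difference of 1.56 (adjusted p = 0.061), while *Muc4* (2.09, adjusted p = 0.030) and *Ovgp1* (2.13, adjusted p = 0.043) were still called. Depth is unknown, so for *Muc15* and the 10 other mucins near 0 no limit of detection can be given.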
